A study of Mus musculus with 2 samples.

Results

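The constant genes of the mouse immunoglobulin chains and the joining (J) chain were followed across the cell classes of the colon. The 10 members were taken by symbol from the 31053 features of the expression matrices, and all 10 were present: the heavy chain constant genes Igha, Ighm, Ighd, Ighg1, Ighg2b and Ighg2c, the kappa light chain constant gene Igkc, the lambda light chain constant genes Iglc1 and Iglc2, and Jchain. Cells of the colon lamina propria, labelled cd11b+, were collected over a Percoll gradient, sorted and profiled with the 10x Genomics 3' chemistry, which counts captured RNA molecules by unique molecular identifiers (UMIs). The WT group was 1 library from wild-type mice, and the KO group was 1 library from mice on a C57BL/6J background in which CRISPR-Cas9 had removed a long non-coding RNA, given as LncRNA17Rik in the labels and called lncLy6c by the study. Each library pooled male mice 8 weeks of age. With 1 library per genotype there was no replicate, so no test between genotypes was possible, and every interval given here is a 95% interval that covers counting error only. Genotype, mouse pool, sort and library cannot be told apart.

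A B lymphocyte first carries IgM and IgD, whose constant genes Ighm and Ighd are read from the same rearranged locus. Class switching joins the rearranged variable region to another constant gene, which gives the IgG isotypes (Ighg1, Ighg2b, Ighg2c) or IgA (Igha), the main antibody of the gut. Plasma cells, the antibody-secreting descendants of B cells, fill much of their RNA pool with the transcripts of 1 heavy and 1 light chain. The J chain links the tails of secreted IgA or IgM into multimers, the form carried across the epithelium.

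The heavy chain genes lie in a row on the minus strand of chromosome 12 (GENCODE M21, GRCm38, the assembly also named mm10): Ighm at 113418558 to 113422730, Ighd at 113406604 to 113416324, Ighg1 at 113325240 to 113330523, Ighg2b at 113302965 to 113307933, Ighg2c at 113285325 to 113288932 and Igha at 113254830 to 113260236. Igkc lies on the plus strand of chromosome 6 (70726435 to 70726966). Iglc1 (19061618 to 19062071) and Iglc2 (19198396 to 19200351) lie on the minus strand of chromosome 16. Jchain lies on the minus strand of chromosome 5 (88519809 to 88527891). The gene IDs of all 10 matched between the matrices and this annotation.

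The last 60 coding bases of the secreted heavy chains are shown because they set apart the members whose products J chain can join. They were read from the GENCODE M21 transcripts of the secreted forms of Igha (chr12:113258771-113258830), Ighm (chr12:113420870-113420929) and Ighg2b (chr12:113306392-113306451), all minus strand, exonic and coding, 5′ to 3′, with the cysteine codon before the last codon in capitals.
Igha: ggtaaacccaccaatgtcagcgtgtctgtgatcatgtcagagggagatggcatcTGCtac
Ighm: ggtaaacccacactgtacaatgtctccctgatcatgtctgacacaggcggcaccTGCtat
Ighg2b: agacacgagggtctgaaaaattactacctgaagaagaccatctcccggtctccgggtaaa
Igha and Ighm shared 41 of these 60 bases position by position and both carried the cysteine codon, whereas Ighg2b matched Igha at 12 of 60 and ended without it.

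The lambda genes are shown because reads of near-identical copies can be split or lost in counting. These are the last 60 coding bases of Iglc2 (chr16:19198539-19198598), Iglc3 (chr16:19065368-19065427) and Iglc1 (chr16:19061755-19061814), 5′ to 3′ on the minus strand, with capitals where a base differs from Iglc2.
Iglc2: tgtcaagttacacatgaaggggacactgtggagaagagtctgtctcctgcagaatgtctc
Iglc3: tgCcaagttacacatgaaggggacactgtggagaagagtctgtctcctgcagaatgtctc
Iglc1: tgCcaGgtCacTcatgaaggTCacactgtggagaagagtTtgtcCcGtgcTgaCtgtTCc
Iglc3 differed from Iglc2 at 1 of 60 positions and Iglc1 at 13 of 60. Over the whole coding part the identity was 95.6% between Iglc2 and Iglc3, 73.0% between Iglc1 and Iglc2, and 85.6% between Ighg2b and Ighg2c. It was 74.4% between Iglc1 and Iglc3. Among these lambda genes Iglc2 had a closer copy than Iglc1, so its values may be less certain. The lambda gene Iglc4 was not compared, and how reads were assigned among the copies was not tested.

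After the cell filter, WT held 2597 cells with 18994564 UMIs and KO 2514 cells with 22331342 UMIs, and 1 barcode was shared by the libraries. Clustering without any immunoglobulin gene gave 20 clusters, of which 3 stayed unnamed and the others were named from fixed markers, into 14 classes. Neither name of the deleted RNA is among the feature symbols (0 matches), so its loss was not checked here. The B cell-like and plasma cell-like clusters met the marker rule, but Itgam, which encodes CD11b, was low in them. It was at 37.8 and 41.7 UMIs per 1000000 UMIs (CPM) in WT B cell-like and plasma cell-like cells, against 277 CPM in WT resident macrophage-like cells.

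The 10 members made up 8.64% of all UMIs in the WT library (1642049 UMIs) and 0.295% in the KO library (65831 UMIs). Most of these UMIs lay in plasma cell-like cells, 95.4% in WT and 92.5% in KO. That class held 227 cells of the WT library (8.74% of cells, 7.68 to 9.89%) and 5 cells of the KO library (0.199%, 0.0646 to 0.464%). B cell-like cells numbered 195 in WT (7.51%) and 85 in KO (3.38%). The difference in the library totals of the members therefore moved with the number of plasma cell-like cells captured, and whether that number differed between mice was not tested.

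**Figure D1:**
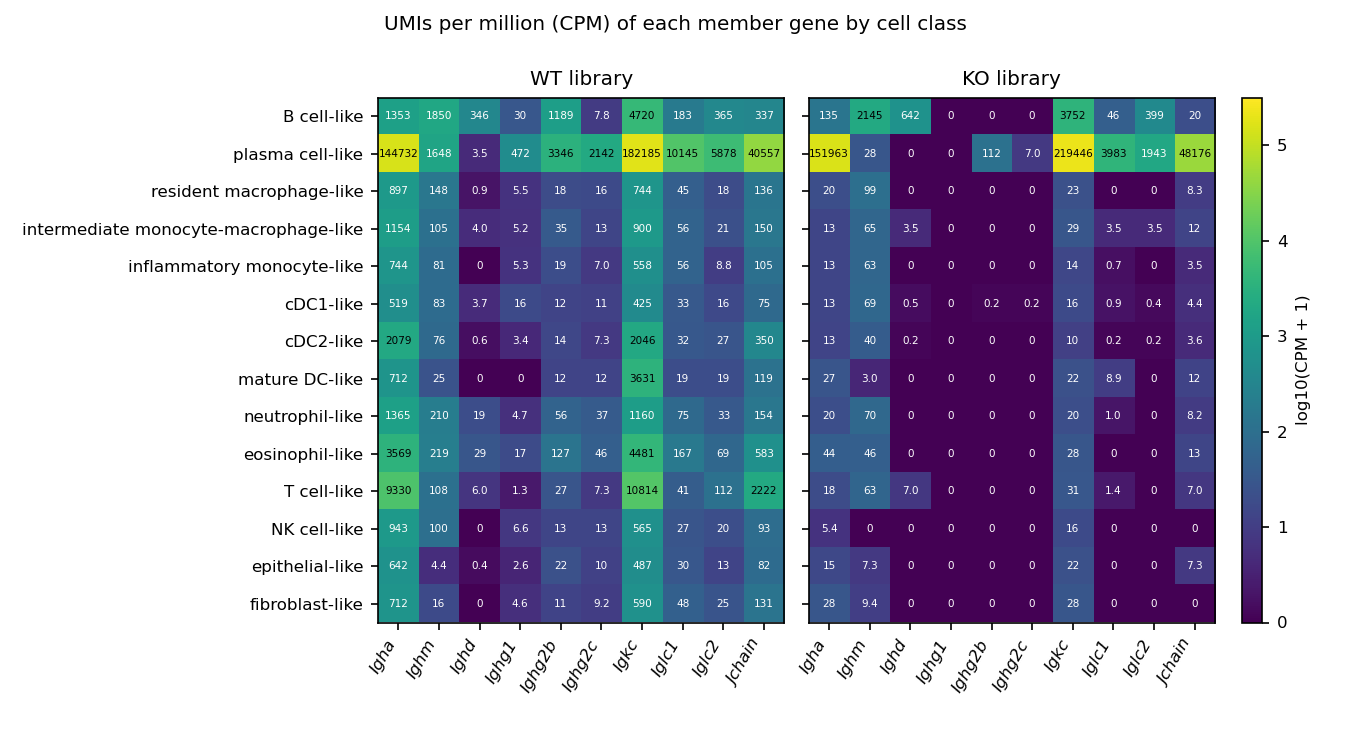
Level of the 10 member genes (columns) in the 14 marker-named classes (rows) of the WT and KO libraries, in CPM, with the CPM printed in each cell and the color on a log10(CPM + 1) scale. Plasma cell-like cells hold the highest Igha, Igkc and Jchain in both libraries, and the 12 classes other than B cell-like and plasma cell-like have Igha between 519 and 9330 CPM in WT and between 5.44 and 43.6 CPM in KO.

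In WT plasma cell-like cells the members took a median of 41.4% of a cell's UMIs, with the lowest cell at 1.14% and the highest at 72.9%. Igkc was the most abundant, at 182185 CPM (181767 to 182603), followed by Igha at 144732 CPM (144360 to 145105) and Jchain at 40557 CPM (40360 to 40755). The intervals of these neighbours in the order did not overlap. The lambda genes followed, with Iglc1 at 10145 CPM and Iglc2 at 5878 CPM. Of the other heavy chain genes, Ighg2b stood at 3346 CPM, Ighg2c at 2142 CPM, Ighm at 1648 CPM, Ighg1 at 472 CPM and Ighd, the constant gene of IgD, at 3.50 CPM from 14 UMIs.

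Igha accounted for between 94.9 and 95.1% (95% interval) of the UMIs of the member heavy chain genes in these cells. Heavy chain UMIs mean those of the member genes throughout, so Ighg3 and Ighe are not in the totals. The remaining isotypes came from few cells. A single cell held 96.9% of the Ighg1 UMIs, 38.6% of the Ighg2c UMIs came from 1 cell, and 37.1% of the Ighm UMIs from 1 cell. Ighg3, a heavy chain gene outside the 10 members, had 2432 UMIs, of which 2417 were in 1 cell.

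Cells were then assigned an isotype where they had at least 10 heavy chain UMIs and at least 50% of them came from 1 gene. In WT, 226 of 227 plasma cell-like cells had a dominant gene. It was Igha in 206 cells (91.2%, 86.7 to 94.5%), Ighg2b in 11, Ighm in 5, Ighg2c in 3 and Ighg1 in 1, and it was Ighd in none. The dominant gene took a median of 99.9% of a cell's heavy chain UMIs, with 54.2% in the lowest cell. Cells with Igha had 12 to 8676 heavy chain UMIs with a median of 2493, and those with Ighg2b had 37 to 2642 with a median of 918, so the ranges overlapped. An isotype call does not need a cell to hold no other heavy chain: cells with dominant Ighg2b carried a median of 10 Igha UMIs, as many as the highest class median among WT classes outside the B lineage.

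Jchain was present in plasma cell-like cells of every isotype seen. Per 100 heavy chain UMIs, the median was 26.6 Jchain UMIs in the 206 Igha cells (8.01 to 108), 31.9 in the 5 Ighm cells (23.1 to 848), 20.5 in the 11 Ighg2b cells (8.98 to 38.9) and 20.0 in the 3 Ighg2c cells (7.84 to 25.9), and the single Ighg1 cell had 25.1. The ranges of all isotypes overlapped, although Ighg2b lacks the terminal cysteine codon shown above. The highest Ighm value belonged to a cell with 31 heavy chain UMIs, so its ratio rests on a low heavy chain count. Its Jchain count was not low, since every Ighm cell had at least 220 Jchain UMIs. That cell had 10367.7 light chain UMIs per 100 heavy chain UMIs, against a median of 151.7 in the 5 Ighm cells. Its Ighm call rests on 18 Ighm UMIs, against a median of 936. Whether it held a heavy chain outside the members was not tested.

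Light chains of WT plasma cell-like cells were mostly kappa. Iglc1 and Iglc2 together gave 8.08% (8.02 to 8.14%) of the UMIs of Igkc, Iglc1 and Iglc2. Light chain UMIs mean these 3 genes throughout, and lambda means Iglc1 and Iglc2, so Iglc3 is not in the shares. In 17 of 227 cells (7.49%, 4.42 to 11.7%) there were more lambda than kappa UMIs. Of these, 12 cells had mainly Iglc1, with 34791 Iglc1 and 588 Iglc2 UMIs, and 5 had more Iglc2 than Iglc1, with 17820 Iglc2 and 65 Iglc1 UMIs, so Iglc1 and Iglc2 were told apart within cells. This does not bear on the closer pair of Iglc2 and Iglc3. Among the 5 cells, Iglc3 UMIs per 100 Iglc2 UMIs ran from 0.130 to 6120 with a median of 0.405, and 1 cell was mainly Iglc3. The most abundant light chain type took a median of 99.1% of a cell's light chain UMIs. Light chain UMIs exceeded heavy chain UMIs, at a median of 130.2 per 100 heavy chain UMIs over all 227 cells.

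The 5 KO plasma cell-like cells were all dominated by Igha, which allows a true share of 47.8 to 100%. Their members took 10.7, 58.5, 54.9, 53.0 and 40.5% of UMIs, and their Igha counts were 1048, 5739, 6759, 5177 and 3023 UMIs. Their Jchain counts were 478, 1965, 2378, 1087 and 986 UMIs, and their Igkc counts were 1778, 7372, 11999, 4693 and 5561 UMIs, so each of them was a kappa cell. All of these lay inside the range of the WT cells, which had 2 to 8673 Igha, 10 to 2567 Jchain and 5 to 13322 Igkc UMIs. All 5 KO cells had doublet scores in the top 3% of their library, as did 19 of the 227 WT cells. With each library clustered alone, KO had no plasma cell-like class. From 7 to 9 of the 9 plasma cell markers had a UMI in each KO cell. The third of these cells also had 14 UMIs of Ighe, the IgE constant gene, beside its 6759 Igha UMIs. Ighe had 0 UMIs in all 227 WT cells (up to 0.749 CPM if 3 UMIs are allowed).

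Between genotypes, the level of Igha in plasma cell-like cells was 151963 CPM in KO against 144732 CPM in WT, a log2 KO to WT ratio of 0.07 (0.05 to 0.09). Igkc had a log2 ratio of 0.27 (0.25 to 0.28) and Jchain of 0.25 (0.21 to 0.28). Without the cell richest in member UMIs of each library, the Igha ratio was -0.02 (-0.04 to 0.01), so its sign rested on 1 cell per library. The ratios of Igkc and Jchain then fell to 0.05 (0.02 to 0.07) and 0.11 (0.06 to 0.15). Cells were also gated one by one on plasma cell markers, which gave 385 WT and 226 KO cells. The log2 ratios then turned to -4.10 for Igha, -3.90 for Igkc and -3.91 for Jchain. Of the gated KO cells, 221 lay in other classes of the clustering. They held 70 of the 21816 Igha, 78 of the 31481 Igkc and 25 of the 6919 Jchain UMIs, each with a median of 0 per cell. They also held 196 of the 200 Ighm UMIs. The gate thus mostly took in KO cells with few or no UMIs of Igha, Igkc and Jchain. Of 9 members with at least 20 UMIs in both libraries together, 6 were at least 2-fold lower in KO, where 29.5% of 7962 genes passed the same rule in that direction, and 0 of 9 were at least 2-fold higher (7.02% of genes). The 6 were Ighm, Ighg1, Ighg2b, Ighg2c, Iglc1 and Iglc2. In WT the dominant-gene calls for these heavy chain genes rested on 1 to 11 cells each. Iglc1 stood at 3983 CPM in the KO cells and Iglc2 at 1943 CPM. Of the 570 KO Iglc1 UMIs, 309 lay in 1 cell. Without the richest cell of each library the log2 ratio of Iglc1 was -2.03 in place of -1.35, and that of Iglc2 -1.31 in place of -1.60.

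**Figure D2:**
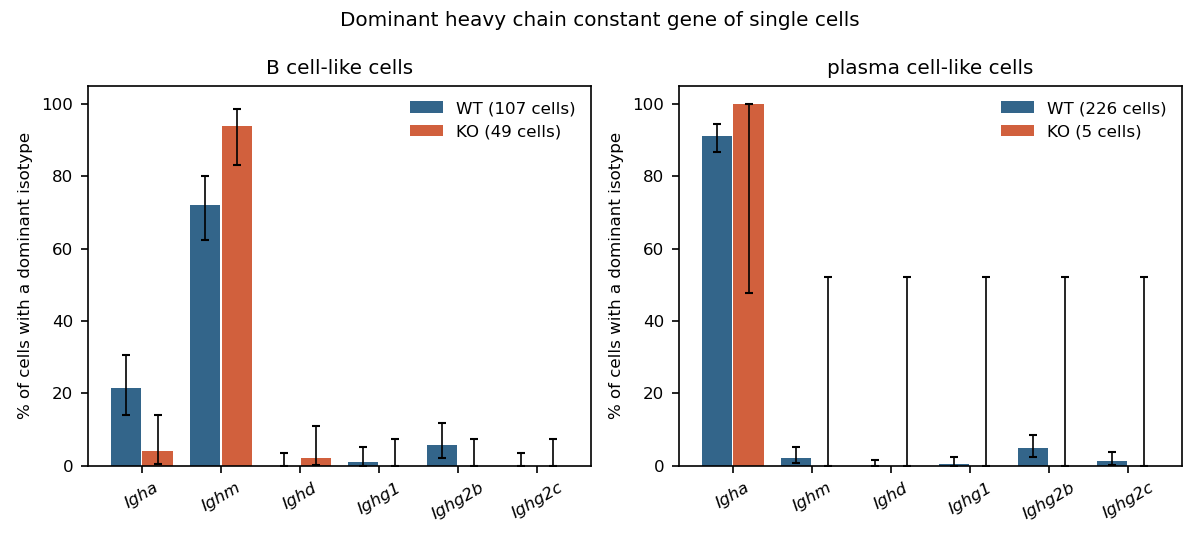
Share of cells whose dominant heavy chain constant gene is the one on the horizontal axis, in percent of cells with a dominant gene, for B cell-like cells (107 WT, 49 KO) and plasma cell-like cells (226 WT, 5 KO). Error bars are exact 95% Clopper-Pearson intervals. Igha leads in plasma cell-like cells at 91.2% in WT, and Ighm leads in B cell-like cells at 72.0% in WT and 93.9% in KO.

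B cell-like cells had a different profile, led by kappa and IgM. The WT level of Igkc was 4720 CPM (4568 to 4877) and the KO level 3752 CPM (3563 to 3948). Ighm, the IgM constant gene, had a level of 1850 CPM (1755 to 1949) in the WT library and 2145 CPM (2003 to 2295) in the KO library, with a log2 KO to WT ratio of 0.21 (0.09 to 0.34). For Ighd the levels were 346 CPM (305 to 390) and 642 CPM (566 to 726), with a log2 ratio of 0.89 (0.64 to 1.15). Iglc2 was nearly level at 365 CPM (WT) and 399 CPM (KO), and the interval of its log2 ratio, -0.17 to 0.41, held 0. With each library clustered alone the log2 ratio turned to -0.18 for Ighm, and that of Iglc2 was 0.72 (0.49 to 0.96), an interval above 0.

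Per cell, Ighm ran from 0 to 60 UMIs in WT B cell-like cells with a median of 5, and from 0 to 50 in KO with a median of 8. The ranges of the libraries therefore overlapped almost fully. Median depth was 2931 UMIs per WT B cell-like cell and 4394 per KO cell. A UMI of Ighm was found in 88.2% of WT and 95.3% of KO B cell-like cells. After thinning to 2000 UMIs, with 30 WT cells and 1 KO cell left out, the shares were 84.8% (78.5 to 89.9%) and 91.7% (83.6 to 96.6%), and the intervals overlapped. Outside the B lineage, the highest unthinned shares were 52.0% (WT) and 53.6% (KO), both in cDC1-like cells. These were deeper, with a median of 9930 (WT) and 14412 (KO) UMIs per cell. Thinned in the same way, cDC1-like cells stood at 21.4% (15.7 to 28.0%) in the WT library and 14.9% (11.3 to 19.2%) in the KO library. The interval of 1 other class, WT eosinophil-like cells, overlapped that of B cell-like cells, at 14.7 to 94.7% of the 5 cells kept.

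Of 9 members with enough UMIs, 5 were at least 2-fold lower in KO B cell-like cells, against 10.0% of 5755 genes, and 0 of 9 were at least 2-fold higher (2.22% of genes). They were Igha, Jchain, Ighg1, Ighg2b and Iglc1. WT cells had 1353 CPM (1272 to 1438) of Igha and KO cells 135 CPM (101 to 176), giving a log2 ratio of -3.33 (-3.76 to -2.93), which turned to 4.94 with each library clustered alone, where KO had no plasma cell-like class and 89 B cell-like cells. For Jchain the levels were 337 CPM (WT) and 20.3 CPM (KO), giving a log2 ratio of -4.05 (-5.28 to -3.05), which likewise turned to 6.10 in that setting. With cells gated one by one on markers the ratios were -5.93 for Igha and -6.79 for Jchain, and 18 WT cells from other classes held 6067 of the 7058 Igha UMIs of that WT set. Both genes also differed in this direction in all 12 other classes, as given below, and the median Igha of a WT B cell-like cell, 3 UMIs, lay within the class medians of 2 to 10 UMIs in those other WT classes.

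Ighg2b was at 1189 CPM in WT and had 0 UMIs in KO (up to 7.62 CPM, at least 156-fold lower), but 82.0% of its 911 WT UMIs were in 1 cell. That cell had 766 heavy chain UMIs, 747 of them Ighg2b, with 1055 Igkc and 114 Jchain UMIs, whereas the median WT B cell-like cell had 12 heavy chain UMIs. It also held 29.2% of the Igkc UMIs of the class. Without the cell richest in members of each library, the log2 KO to WT ratio of Igkc was 0.10 (0.01 to 0.20) in place of -0.33 (-0.42 to -0.24), so the direction of Igkc depended on it. Gating cells one by one on markers moved the Igkc ratio the other way, to -2.06 (-2.14 to -1.98). Ighg1 had 23 WT UMIs, 73.9% of them in 1 cell, and 0 in KO (at least 3.94-fold lower).

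Of WT B cell-like cells with a dominant isotype, 77 of 107 had Ighm (72.0%, 62.5 to 80.2%), 23 Igha, 6 Ighg2b and 1 Ighg1. In KO, 46 of 49 had Ighm (93.9%, 83.1 to 98.7%), 2 Igha and 1 Ighd. The 23 Igha cells were 11.8% (7.63 to 17.2%) of all WT B cell-like cells. The same call was met by 1.25 to 54.9% of cells in the 12 other WT classes, with fibroblast-like cells lowest and epithelial-like cells highest. How these shares relate to depth was not tested. The 23 WT B cell-like Igha cells had a median of 10 Igha UMIs, with 82 in the highest. In KO, no cell of the 12 other classes was called Igha, and the 2 KO B cell-like Igha cells had 17 and 23 Igha and 0 Ighm UMIs.

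Shares of heavy chain UMIs in B cell-like cells followed the same split. Ighm gave 38.7% (37.2 to 40.3%) of them in WT, against 73.4% (70.8 to 75.9%) in KO. Ighd gave 7.24% (WT) and 22.0% (KO), and Igha 1037 of 3660 UMIs (WT) and 53 of 1151 (KO). Without the cell richest in members, the WT share of Ighm was 49.0%, and with gating 15.5%. With each library clustered alone the direction turned, at 49.7% in WT and 3.88% in KO. Among Ighm and Ighd UMIs alone, Ighm took 84.3% (82.4 to 86.0%) in the WT library but 77.0% (74.4 to 79.4%) in the KO library. Lambda genes gave 10.4% (9.48 to 11.4%) of light chain UMIs in WT and 10.6% (9.14 to 12.2%) in KO. Without the cell richest in members of each library, the WT share was 13.7% (12.5 to 15.0%) and no longer overlapped the KO interval, so the likeness of the libraries depended on 1 WT cell. With each library clustered alone the lambda share was 14.2% in WT and 2.45% in KO. More lambda than kappa was found in 6 of 115 WT and 1 of 57 KO cells with at least 10 light chain UMIs.

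Within the WT library, 8 of 10 members were at least 2-fold higher in plasma cell-like than in B cell-like cells, against 11.1% of 8614 genes, and 1 of 10 was at least 2-fold lower, against 37.3%. The log2 ratio was 6.91 (6.74 to 7.09) for Jchain, 6.74 (6.65 to 6.83) for Igha, 5.80 (5.56 to 6.04) for Iglc1, 5.27 (5.22 to 5.32) for Igkc and 4.01 (3.84 to 4.18) for Iglc2. Ighd was the exception, at 3.50 against 346 CPM, a log2 ratio of -6.63 (-7.52 to -5.86). Ighm differed little between the classes, at -0.17 (-0.25 to -0.08), but its UMIs came from 45 of 227 plasma cell-like cells and from 172 of 195 B cell-like cells. Since members filled much of the plasma cell-like RNA pool, the median gene had a log2 ratio of -0.69 on this scale, and of -0.03 when CPM were taken over UMIs outside the immunoglobulin genes and Jchain.

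Genes that fold, modify and export the chains were compared on that second scale. These genes could enter the clustering, so the values describe the classes. Of 15 genes of antibody assembly and secretion, 14 were at least 2-fold higher in WT plasma cell-like than B cell-like cells, with a median log2 ratio of 3.63, where 19.6% of 8543 genes passed. Txndc5, a disulfide isomerase of the endoplasmic reticulum, was highest at 5.03, from 42 UMIs in B cell-like and 4401 in plasma cell-like cells. Hsp90b1, its HSP90 chaperone, was at 3.63 (3.49 to 3.77), and Hspa5, the chaperone BiP that holds unassembled heavy chains, at 1.23 (1.13 to 1.33). Dnajb9 did not reach 2-fold, at 0.87 (0.58 to 1.17).

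The list of class switching and its signals moved less uniformly, with 2 of 10 measured genes at least 2-fold higher and 6 at least 2-fold lower in plasma cell-like cells (19.6 and 15.1% of all genes) and a median log2 ratio of -1.69. Higher were Runx2 at 4.35 (2.78 to 6.64), from 3 B cell-like UMIs, and Tnfrsf13b, which encodes the receptor TACI, at 2.11 (1.69 to 2.57). Lower were Il21r at -4.66 (-5.45 to -3.94), Cd40 at -2.40 (-3.28 to -1.56), Tgfb1 at -2.42 (-2.67 to -2.18), Smad3, Tnfrsf13c and Tgfbr2. Among receptors, 2 of 4 measured genes were at least 2-fold lower, but both were markers that named the B cell-like cluster, so their direction was set by the naming. Fcmr, the IgM receptor, was at -5.80 (-6.82 to -4.92) and Cd79a, a signalling partner of membrane immunoglobulin, at -1.70 (-1.81 to -1.58).

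Genes whose levels followed the members closely were sought over the 25 class and library sums with at least 20 cells. They were ranked by Pearson's correlation of log2(CPM + 10) over 9371 genes, as a description in which points share libraries. No immunoglobulin gene or Jchain stands in the lists, so they give the closest among other genes only. For Ighm they were Cd79b (r = 0.91), Cd79a (0.86), Ly6d (0.86), Pou2af1 (0.84) and Vpreb3 (0.83). Cd79a and Cd79b were among the markers that named the B cell-like cluster, so the naming bears on their rank. For Jchain they were Fam214a (0.82), Derl3 (0.80), Desi1 (0.80), Mzb1 (0.79) and Eaf2 (0.78). Derl3, Mzb1 and Eaf2 were likewise markers of the plasma cell-like cluster, whose KO cells were too few to enter the sums. For Igha they were Usp50 (0.81), Fam214a (0.80), Slc39a7 (0.79), Desi1 (0.78) and Gmppa (0.76).

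Outside the B lineage, the members were read as background, because these cell types are not known to make antibody. Whether any of their UMIs, those of Ighm among them, were made by these cells was not tested. Igha was lower in KO in all 12 of the other classes, with log2 KO to WT ratios from -9.01 in T cell-like cells to -4.66. Its WT level had a median of 920 CPM over these classes, with 519 CPM in cDC1-like cells as the lowest and 9330 CPM in T cell-like cells as the highest. In KO the median was 16.3 CPM, from 5.44 to 43.6 CPM, so no WT class overlapped a KO class. Igkc was lower in all 12 classes (median 822 CPM in WT and 22.0 CPM in KO), as was Jchain (133 and 7.12 CPM). With each library clustered alone, the direction turned in cDC1-like cells, to 0.28 (0.12 to 0.45) for Igkc and 0.94 (0.55 to 1.36) for Jchain, and Igha there was at -0.79 (-0.95 to -0.62). In neutrophil-like cells 4 of 4 measured members were at least 2-fold lower in KO, against 11.7% of 4318 genes, and 0 of 4 higher, against 7.20%. Ighm, among these 4, was under 2-fold without the cell richest in members of each library, at a log2 ratio of -0.98. It was also under 2-fold, with an interval that held 0, with immunoglobulin genes in the clustering (-0.29) and with gating (-0.14). In resident macrophage-like cells 6 of 7 were lower, against 8.09% of 8025 genes, and 0 of 7 higher, against 4.62%.

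At least 1 Igha UMI was found in 95.7% of the 2038 WT cells of these classes and in 11.1% of the 2217 KO cells. In neutrophil-like cells the shares were 92.7% in WT and 7.22% in KO, and after thinning to 2000 UMIs, with 29 cells of each library left out, 83.0% (70.2 to 91.9%) and 3.63% (1.67 to 6.78%). The number of plasma cell-like cells moved with these shares, at 227 in WT and 5 in KO, and its part in them was not tested.

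**Figure D3:**
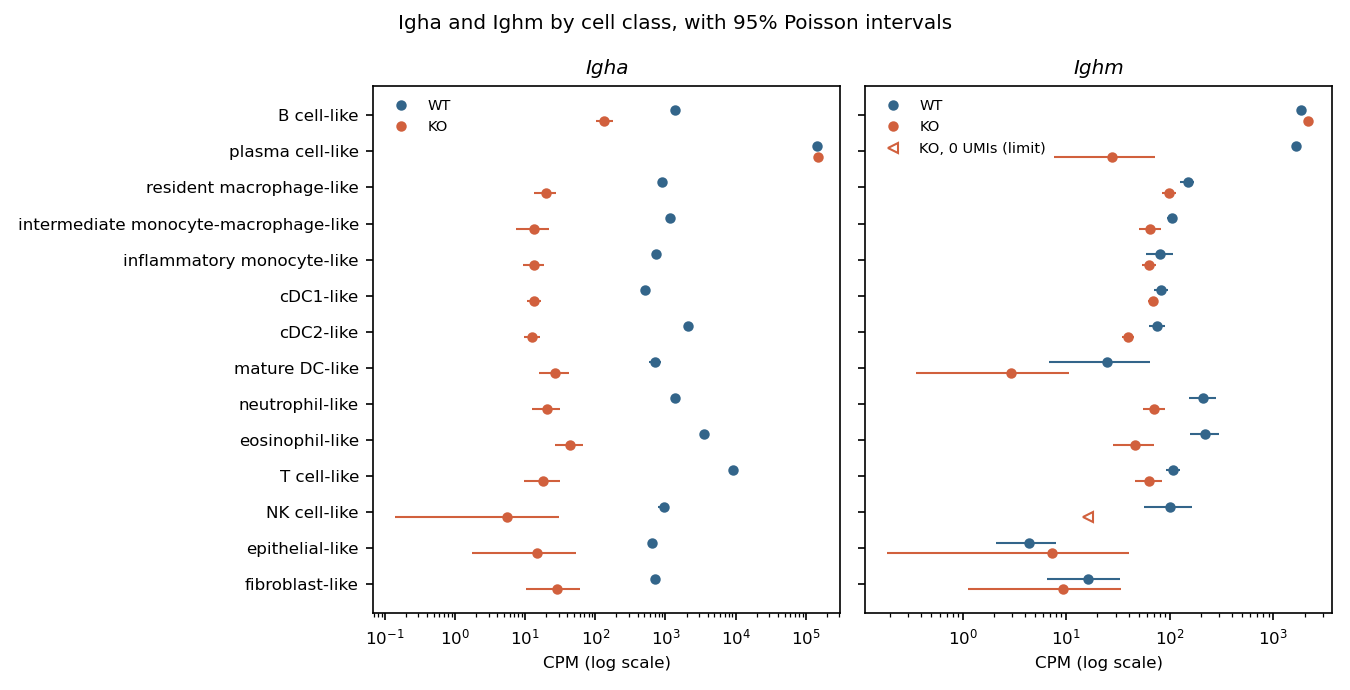
Igha (left) and Ighm (right) in CPM on a log axis for the 14 classes of the WT and KO libraries. Points are levels from summed UMIs with 95% Poisson intervals, and the open triangle marks the limit that a count of 0 allows. Igha is far higher in WT in all 12 classes other than B cell-like and plasma cell-like, whereas Ighm of these classes is closer between the libraries, with medians of 91.1 CPM in WT and 54.2 CPM in KO.

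More than 200 member UMIs each were held by 8 WT cells of these classes, and together they had 62.5% of the member UMIs found there. They comprised 4 T cell-like cells and 1 each of the cDC2-like, intermediate monocyte-macrophage-like, mature DC-like and eosinophil-like classes, and there was none in KO. The 4 T cell-like cells and the cDC2-like cell had 6024 to 10840 member UMIs each, or 26.6 to 52.1% of their UMIs, and 6 to 8 of the 9 plasma cell markers beside 3 to 7 markers of their own class. Without the 8 cells, T cell-like Igha in WT was 720 CPM in place of 9330 CPM, and its log2 KO to WT ratio was -5.32 (-6.23 to -4.53) in place of -9.01. The ratio of the cDC2-like cells became -5.52, and Igha was still lower in KO in 12 of 12 classes, from -7.44 to -4.51. The mature DC-like cell differed from the others, with 523 Igkc and 21 Igha UMIs. Whether these barcodes hold more than 1 cell was not tested. Of the 8 cells, 2 were among those with the top 3% of doublet scores.

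In WT, without the 8 cells, the background mean ran from 2.82 Igha UMIs per cell in eosinophil-like to 10.2 in epithelial-like cells, a 3.62-fold span, while the median depth of these classes spanned 20.8-fold, from 747 to 15503 UMIs. The CPM spanned 6.15-fold, from 519 CPM in cDC1-like to 3187 CPM in the shallow eosinophil-like cells. In KO the order of the spans was the opposite, at 17.2-fold per cell and 8.02-fold in CPM, from 304 Igha UMIs in all. Of the 41 WT cells with more than 2% member UMIs, which include the 8 cells, 18 were epithelial-like barcodes of low depth, with medians of 653 UMIs and 7.30% member UMIs.

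**Figure D4:**
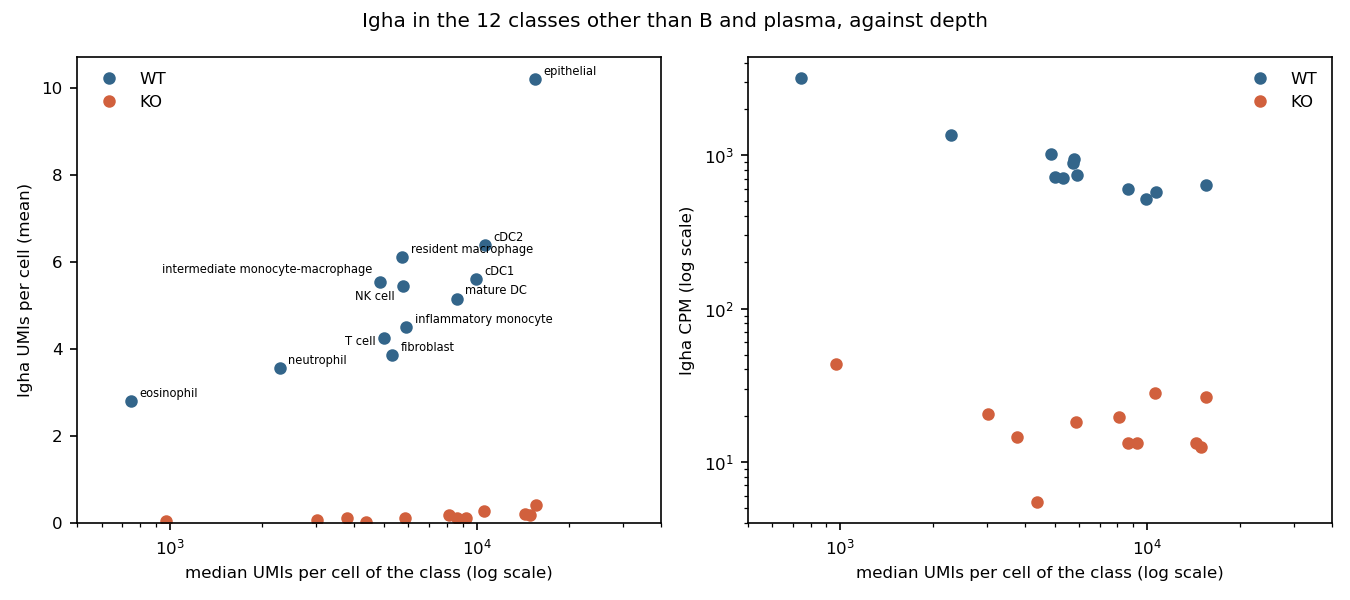
Mean Igha UMIs per cell (left, linear axis) and Igha CPM (right, log axis) of the 12 classes other than B cell-like and plasma cell-like, against the median UMIs per cell of the class (log axis), in WT and KO, without the 8 cells over 200 member UMIs. WT classes lie between 2.82 and 10.2 Igha UMIs per cell over a 20.8-fold span of depth, and their CPM is highest in the shallowest class.

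The background of the WT library did not keep the proportions of its plasma cell-like cells. Igha was 44.3% (44.2 to 44.4%) of Igha and Igkc UMIs in plasma cell-like cells and had a median of 54.7% over the 12 other classes, where the interval lay above the plasma cell-like one in 10 classes and below it in 1, the mature DC-like class. Without the 8 cells it lay above in 12 of 12, from 49.1 to 62.6%. Jchain was 21.9% (21.8 to 22.0%) of Jchain and Igha UMIs in plasma cell-like cells and a median of 12.9% elsewhere, with the interval below in 12 of 12 classes, or in 11 of 12 without the 8 cells. The KO library did not repeat this for Jchain, whose share had a median of 26.8% over 8 classes with enough UMIs against 24.1% in plasma cell-like cells, with the interval below in 0 classes and above in 1. The KO share of Igha beside Igkc was above in 2 of 9 classes. Lambda genes gave 8.08% of light chain UMIs in WT plasma cell-like cells and a median of 7.85% in the other WT classes, from 1.02 to 11.1%. The interval lay below the plasma cell-like one in 4 of 12 classes and above it in 1. In KO the median was 4.82% over 8 classes, against 2.63% in plasma cell-like cells, with the interval above in 3 and below in 0.

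**Figure D5:**
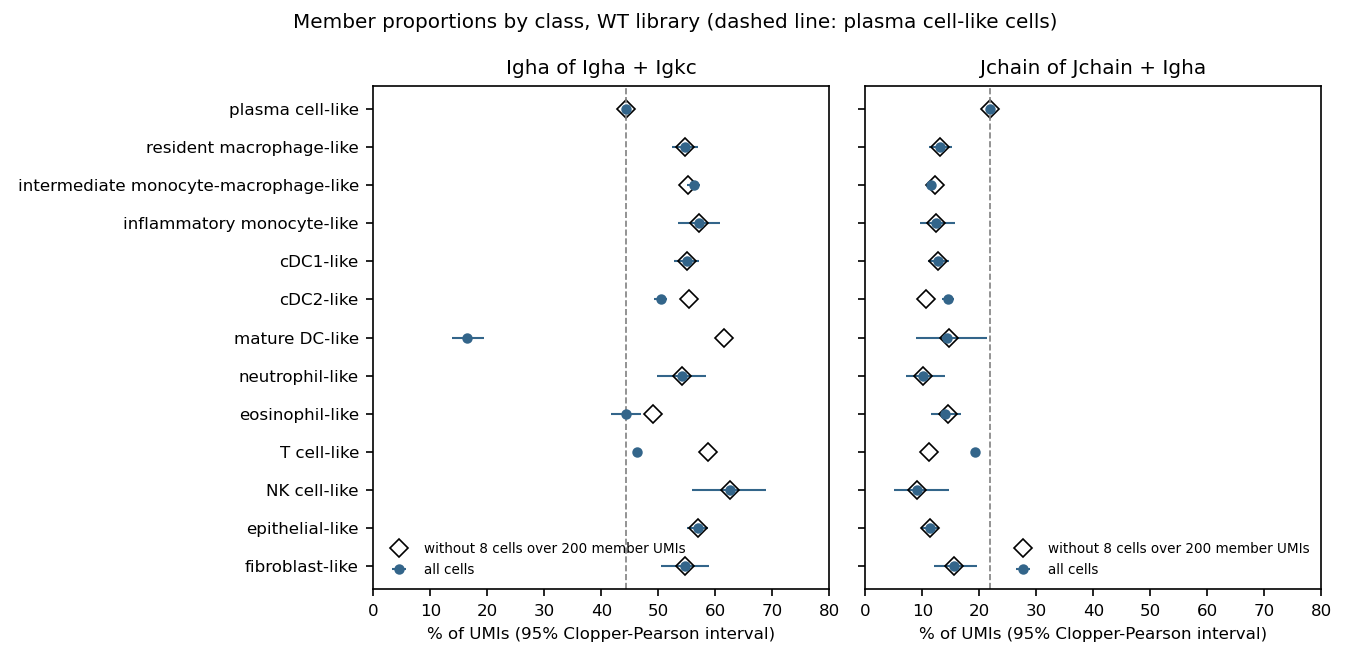
Igha as a percent of Igha and Igkc UMIs (left) and Jchain as a percent of Jchain and Igha UMIs (right) in plasma cell-like cells and the 12 classes outside the B lineage of the WT library. Filled points with exact 95% Clopper-Pearson intervals use all cells, open diamonds leave out the 8 cells over 200 member UMIs, and the dashed line is the plasma cell-like value, 44.3% and 21.9%.

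Ighm did not follow this pattern. Over the same 12 classes it had 1166 UMIs in WT and 1145 in KO, with class medians of 91.1 and 54.2 CPM, and it made up a median of 58.5% of member UMIs in the 9 KO classes with at least 20 of them, but of 3.32% in WT. In KO its level was highest in resident macrophage-like cells, at 98.9 CPM, followed by neutrophil-like cells at 70.3, cDC1-like at 68.8, intermediate monocyte-macrophage-like at 64.8, inflammatory monocyte-like at 63.2 and T cell-like at 62.6 CPM. The intervals of resident macrophage-like cells (84.4 to 115 CPM) and neutrophil-like cells (54.7 to 89.0 CPM) overlapped. It was low in mature DC-like cells (2.96 CPM), epithelial-like cells (7.29 CPM, 1 UMI) and fibroblast-like cells (9.41 CPM, 2 UMIs). NK cell-like cells had 0 UMIs, or up to 16.3 CPM if 3 UMIs are allowed. In WT the lowest levels were 4.37 CPM in epithelial-like and 16.1 CPM in fibroblast-like cells, although the same WT epithelial-like cells had 642 CPM of Igha. NK cell-like cells differed in place, at 99.6 CPM from 15 UMIs in WT (at least 6.10-fold lower in KO).

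The log2 KO to WT ratio of Ighm was -0.59 (-0.91 to -0.26) in resident macrophage-like cells, -0.27 in cDC1-like cells (from -0.52 to just below 0) and -0.79 (-1.30 to -0.31) in T cell-like cells. Neither of the last 2 calls held under every setting, since the cDC1-like ratio was 0.09 (-0.47 to 0.69) at resolution 0.5 and the T cell-like ratio 0.05 (-0.62 to 0.72) with each library clustered alone. Inflammatory monocyte-like cells had a ratio of -0.35 (-0.83 to 0.15). The resident macrophage-like interval held 0 at resolution 2, where the ratio was -0.24 (-0.56 to 0.07), with immunoglobulin genes in the clustering, at -0.14 (-0.45 to 0.17), and with 4000 variable genes. The interval lay below 0 in 9 classes and held 0 in 3. Among classes with a UMI in both libraries, it lay below 0 in 8 of 11, and in 5 of 10 under each of the first 2 of these settings, while the median gene of resident macrophage-like cells was at -0.18. In neutrophil-like cells the ratio was -1.58. Its interval held 0 with immunoglobulin genes in the clustering, at -0.29 (-1.02 to 0.49), and with gating, at -0.14 (-0.99 to 0.80). Of the 45 WT UMIs, 18 came from 1 cell, and without the cell richest in members of each library the ratio was -0.98 (-1.65 to -0.28). WT eosinophil-like cells likewise had 19 of their 38 Ighm UMIs in 1 cell.

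Ighm of these classes was spread over many cells. In KO, 630 of 2217 cells had an Ighm UMI, the highest cell had 14, and that cell held 1.22% of the sum. A UMI was found in 46.9% of resident macrophage-like KO cells at a median depth of 8113 UMIs, and in 2.33% of mature DC-like KO cells at 15567 UMIs. Thinned to 2000 UMIs, the shares were 17.4% (11.8 to 24.3%) and 0 of 42 cells (interval up to 8.41%). Those intervals did not overlap, but thinned to 1000 UMIs they did, at 10.1% (6.01 to 15.7%) against 0 of 42 cells. At 2000 UMIs the thinned share in KO was 14.9% (11.3 to 19.2%) in cDC1-like cells, compared with 9.97% (6.87 to 13.8%) for inflammatory monocyte-like cells, whose interval did overlap that of mature DC-like cells. Resident macrophage-like cells of WT had 30.3% (22.3 to 39.3%), against 0 of 94 epithelial-like cells (interval up to 3.85%).

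For every 100 Ighm UMIs, KO B cell-like cells had 175 Igkc, 29.9 Ighd, 82.2 Cd79a, 27.8 Cd79b and 19.8 Ms4a1 UMIs, whereas the 12 other KO classes had 29.2 Igkc, 1.14 Ighd, 2.53 Cd79a, 6.20 Cd79b and 1.40 Ms4a1 UMIs. Cd79a, Cd79b and Ms4a1 were among the markers that named the B cell-like cluster. Ighm was thus 98.9% (98.1 to 99.4%) of Ighm and Ighd UMIs in those classes and 77.0% (74.4 to 79.4%) in KO B cell-like cells. In WT, without the 8 cells, the other classes had 3.72 Ighd, 7.70 Cd79a and 15.1 Cd79b UMIs per 100 Ighm UMIs, against 18.7, 86.0 and 28.9 in WT B cell-like cells. Igkc went the other way in WT, with 759 UMIs per 100 Ighm UMIs in the other classes and 255 in B cell-like cells.

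The other members were near 0 outside the B lineage in KO. Ighg1 had 0 UMIs in all 12 KO classes, Ighg2b and Ighg2c had 1 UMI each, Iglc2 had 7 and Iglc1 had 20, against 83, 339, 162, 412 and 607 UMIs in WT. Ighd had 13 UMIs in KO and 43 in WT and was at 0 in 8 KO and 4 WT classes. The interval of the KO to WT ratio lay below 0 in 10 of 12 classes for Iglc1 and for Iglc2, in 8 for Ighg2b and for Ighg2c, in 6 for Ighg1 and in 3 for Ighd, and held 0 in the others.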

How the data were processed

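The authors deposited raw UMI counts per gene and barcode for each library, made with Cell Ranger 3.0.2 per the file headers; the submitters' processing notes name mm10 and Seurat 4, and whether intronic reads were counted is not given in the sources used here. Cells with 200 to 6000 genes and up to 15% mitochondrial UMIs were kept, the study's filter. Libraries were clustered together (scanpy 1.11.5, leidenalg 0.10.2, Python 3.11.15) on 2000 variable genes, 30 components and resolution 1, without any immunoglobulin gene or Jchain, and clusters were named from marker lists with at least 3 raised markers. Doublets were removed only by the gene limit, since Scrublet called 1 WT and 9 KO cells. Counts were summed by class and library and given as CPM, with exact Poisson, Clopper-Pearson or conditional binomial 95% intervals. For CPM limits a count of 0 was taken to allow 3 UMIs, and fold limits at 0 UMIs are bounds of the conditional binomial interval. Counts of genes past 2-fold used genes with at least 20 UMIs and CPM + 1. Ratios are KO over WT. All 10 members were named, with genes of the fixed lists. Members and lists were chosen with earlier results of these data known. The deposited barcodes (3185 WT, 3020 KO) are close to the cell number given for KO in the figure legend of the study, and far below that given for WT. Scripts were tested on simulated data. Alternatives are given below.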

Additional observations from a re-analysis of the deposited data

Results flagged for a closer look

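In 5 cases the KO to WT ratio was marked because its interval lay above 0 in a B lineage class and below 0 in others, and in each case the difference between classes was not tested. In plasma cell-like cells the log2 ratio was 0.0703 (0.0507 to 0.0899) for Igha, 0.27 (0.25 to 0.28) for Igkc and 0.25 (0.21 to 0.28) for Jchain, while the interval lay below 0 in 13 classes each for Igha, Igkc and Jchain. In B cell-like cells it was 0.21 (0.09 to 0.34) for Ighm, below 0 in 10 classes, and 0.89 (0.64 to 1.15) for Ighd, below 0 in 3 classes. These counts take in classes with 0 UMIs in KO, where the ratio has an upper bound only. The KO plasma cell-like values come from 5 cells. Not every sign held under the other settings. Gating turned the plasma cell-like ratios to -4.10 (Igha), -3.90 (Igkc) and -3.91 (Jchain), and leaving out the richest cell turned Igha to -0.0151. B cell-like Ighm was -0.18 with each library clustered alone.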

How the results depend on the processing

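No paired analysis was possible because each genotype had 1 library. Under the 12 settings that allowed it, the direction of Igha outside the B lineage did not change in any class that could be compared, and its highest log2 ratio was -0.79, with each library clustered alone. Gating cells one by one on markers turned the plasma cell-like ratios to -4.10 (Igha), -3.90 (Igkc) and -3.91 (Jchain) and lowered the B cell-like ratios to -5.93 (Igha), -2.06 (Igkc) and -6.79 (Jchain). For plasma cell-like Igha, leaving out the cell richest in members gave -0.0151, the stricter cell filter 0.0353, and CPM over UMIs outside the immunoglobulin genes 0.15. The B cell-like Igkc ratio turned to 0.13 with 4000 variable genes, 0.17 with immunoglobulin genes in the clustering, 0.0830 without the top 3% of Scrublet scores and 0.10 without the richest cell. With each library clustered alone, B cell-like ratios were 4.94 (Igha), -0.18 (Ighm), 4.15 (Igkc), 2.29 (Iglc1), 0.72 (Iglc2) and 6.10 (Jchain). In that setting cDC1-like ratios were 0.28 (Igkc), 0.10 (Iglc1), 0.75 (Iglc2) and 0.94 (Jchain), and T cell-like Ighm was 0.0472. At resolution 0.5 cDC1-like Ighm was 0.0924. The neutrophil-like Ighm ratio was -0.29 (-1.02 to 0.49) with immunoglobulin genes in the clustering and -0.14 (-0.99 to 0.80) with gating, where both intervals held 0. It was -2.45 with each library alone and -0.98 without the richest cell. The cause was not tested for any of these.

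The share of Igha among heavy chain UMIs of WT plasma cell-like cells was 94.9% with 4000 variable genes and with each library alone, 95.1% without top Scrublet scores and with gating, and 95.3% without the richest cell. Their lambda share was 8.19% (stricter filter), 7.96% (immunoglobulin genes in the clustering), 8.41% (Scrublet), 8.27% (each library alone), 8.02% (gating) and 8.21% (without the richest cell). The Ighm share in WT B cell-like cells was 50.5, 49.1, 50.4, 49.7, 15.5 and 49.0% with 4000 variable genes, immunoglobulin genes in the clustering, Scrublet, each library alone, gating and without the richest cell, and their lambda share in the same order 14.0, 13.5, 13.0, 14.2, 3.80 and 13.7%. In KO B cell-like cells these shares were 3.88 and 2.45% with each library alone. Igha of Igha and Igkc in WT plasma cell-like cells was 44.4% (stricter filter and gating) and 44.2% (every barcode), and 58.7% in neutrophil-like cells with gating. The Jchain share was 22.0% (Scrublet and each library alone) and 21.7% (gating).

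Removing the top 3% of Scrublet scores removed all 5 KO plasma cell-like cells, so no genotype ratio was left for that class. KO plasma cell-like values rest on 5 cells in the main clustering, on 226 with gating, of which 221 held 70 of 21816 Igha UMIs, and on none with each library alone.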
